A study of Mus musculus and Homo sapiens with 18 samples.

Results

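Nanog-sg2 is one of a pair of single guide RNAs (sgRNAs) directed at the mouse gene Nanog, and the account here follows it over 3 amounts of sgRNA. The members were the peaks listed for the 3 libraries transfected with 10, 20 or 40 ug of Nanog-sg2, 1 library for each amount, out of 18 samples in the series, 16 of which have a peak list that was used. These lists hold 20, 26 and 26 peaks in order of dose, 72 in all, against 53617 over the 16 lists. Peaks that had at least 1 bp in common were merged, which gave 40 positions. All 3 libraries are anti-HA chromatin immunoprecipitates (ChIP-seq) of V6.5 mouse embryonic stem (ES) cells, strain C57BL/6-129, that carry a stably integrated gene for HA-tagged dCas9, the catalytically inactive form of Cas9. The labels give Lipofectamine transfection and do not say whether the dCas9 line is a single clone. Positions were compared with the peaks of the other mouse guides in the same dCas9 line, namely Phc1-sg1, Phc1-sg2 and Nanog-sg3 at 20 ug (2 libraries for Nanog-sg3) and Nanog-sg3 at 0.02, 0.2 and 2 ug. One more Nanog-sg3 library came from wild-type V6.5 cells given 20 ug of sgRNA and 20 ug of dCas9 together.

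Cas9 finds DNA by binding a short protospacer-adjacent motif and then pairing the neighbouring strand with the guide, starting from the end of the guide next to the motif, the seed. Pairing of the seed alone can hold the protein for some time, and so dCas9 ChIP-seq shows sites with incomplete matches as well as the designed target. Nanog, the gene this guide was made for, encodes a homeobox transcription factor that ES cells use to stay pluripotent. Phc1 encodes a subunit of Polycomb repressive complex 1. Neither the sequence of the guide nor a genome of the mouse build mm9 was used here, so positions are given by place and not by the bases or genes under them.

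The score of a peak is the authors' own and its column has no name; it was used to order peaks within a list. Read depth is unknown for every list, and a common scale of scores between lists cannot be assumed. With 1 library for each dose there is no replicate error, and no difference between doses was tested. The highest running number in the peak names was 1431 in the 10 ug list, 1734 in the 20 ug list and 1945 in the 40 ug list, so the listed peaks are 1.4%, 1.5% and 1.34% of those numbers, left by a filter of unknown rule. The corresponding shares for the other guides at 20 ug were 20.6% (Phc1-sg1), 30.8% (Phc1-sg2), 43.5% and 38.9% (Nanog-sg3, first and second library). Low shares were not limited to Nanog-sg2, as the Nanog-sg3 lists at 0.02, 0.2 and 2 ug had 0.891%, 1.38% and 17.3%. The lowest score was 55.76, 53.99 and 54.96 in the 10, 20 and 40 ug lists. It was 50.01 to 50.49 in the 8 lists of the other mouse guides, so every list stopped just above 50. The part of such a floor in calls at 1 or 2 doses was not tested. The 10 and 40 ug lists have a sixth column that holds 11, which the 20 ug list lacks, so differences between 20 ug and the other doses cannot be told apart from a difference in how the lists were prepared.

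Part of the Nanog-sg2 positions recurred from one amount of sgRNA to another. A peak was listed at every dose for 12 of the 40 positions, at 2 doses for 8 and at a single dose for 20. Distinct positions were far apart: the closest pair, both on chromosome 17, lay 1735 kb from each other, so no position called at 1 dose was a near miss of a peak at another dose. Of the 8 positions called at 2 doses, 5 were called at 10 and 40 ug, 2 at 20 and 40 ug and 1 at 10 and 20 ug. Without the 20 ug list, 17 of the remaining 29 positions were called at both 10 and 40 ug.

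As shares of each list, the 20 ug library also had 65% of the 10 ug peaks (13 of 20; 95% interval 40.8 to 84.6%, exact Clopper-Pearson) and the 40 ug library 85% of them (17 of 20; 62.1 to 96.8%). The 10 ug library had 50% of the 20 ug peaks (13 of 26; 29.9 to 70.1%) and the 40 ug library 53.8% of them (14 of 26; 33.4 to 73.4%). The 10 ug library had 65.4% of the 40 ug peaks (17 of 26; 44.3 to 82.8%) and the 20 ug library 53.8%. For comparison, the 2 Nanog-sg3 libraries at 20 ug found 61.3% of the first library's 5957 peaks in the second and 62.2% of the second's 5862 peaks in the first. All of these Nanog-sg2 intervals include those values except that of the 10 ug peaks at 40 ug, whose lower bound of 62.1% lies between them. The intervals cover counting error only. Of the 2 Nanog-sg3 lists at 20 ug, the first lacks the sixth column and the second has it. Among the Nanog-sg2 lists, only those at 10 and 40 ug share a layout. The part of this difference in the shares was not tested.

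Most of the strongest peaks of each list recurred. Of the 10 highest-scoring peaks at 10 ug, 9 were found at 20 ug and 10 at 40 ug. Of the 10 highest at 40 ug, 10 were found at 10 ug and 9 at 20 ug. Of the 10 highest at 20 ug, 8 were found at 10 ug and 9 at 40 ug. The 12 positions called at every dose held 5 of the top 5 ranks at 10 ug, 4 of the top 5 at 20 ug and 5 of the top 5 at 40 ug, the 1 exception being the Nanog position at 20 ug. Yet only 3 of the 12 were among the top 5 in every list, and these were the first position on chromosome 2 and the first and the third on chromosome 3.

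**Figure D1:**
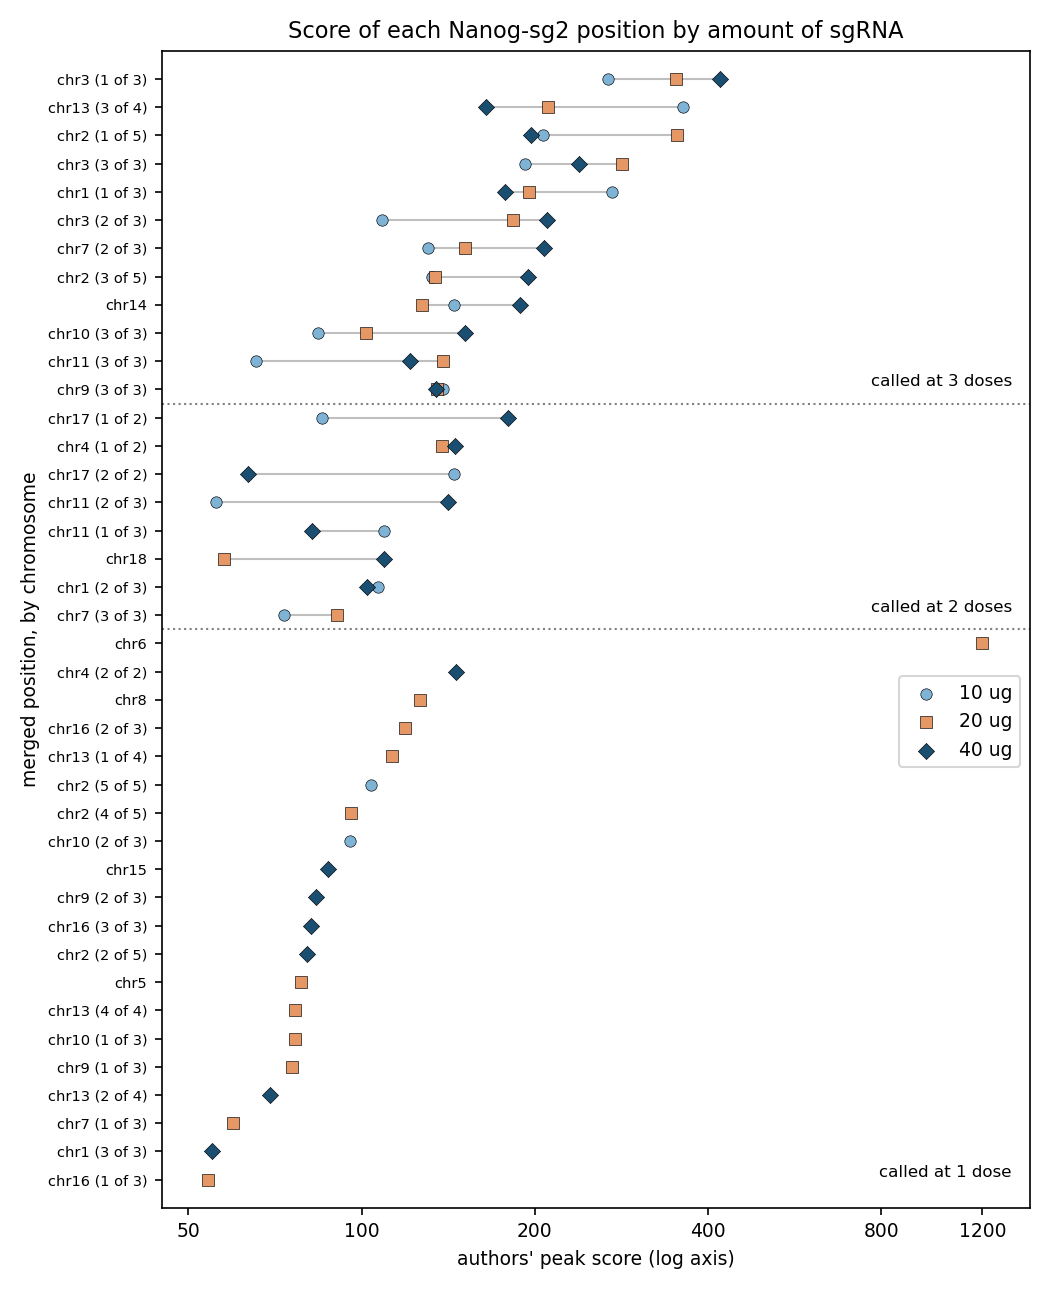
The authors' peak score (log axis) of each of the 40 Nanog-sg2 positions, 1 row for each position named by chromosome and order along it, with circles for 10 ug, squares for 20 ug and diamonds for 40 ug. Grey lines join the scores of 1 position. The 12 positions called at 3 doses reach scores of 138.31 or more in at least 1 list, and 1 position called at 1 dose, on chromosome 6, stands far to the right at 1200.13.

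Of the 12 positions called at every dose, 5 had a higher score at each step of dose, 3 a lower score at each step and 4 neither. These orders describe scores of 3 lists that may differ in scale, and are not a measured response to dose. The position with the highest score of the first kind was on chromosome 3 between 27168980 and 27170237, where the score was 268.02 with 10 ug, 352.11 with 20 ug and 419.14 with 40 ug. The second position on chromosome 3, between 68278162 and 68279262, had scores of 108.51, 183.05 and 210.17 in the same order of dose. It ranked 12 of 20 in the 10 ug list, 7 of 26 in the 20 ug list and 3 of 26 in the 40 ug list. On chromosome 7 between 69369636 and 69370522 the scores were 130.40, 151.57 and 207.53, with ranks of 10, 8 and 4. On chromosome 2 between 94434415 and 94435044 the scores were 132.68 and 134.04 at 10 and 20 ug, close to each other, and 195.03 at 40 ug. The last of the 5, on chromosome 10 between 92993831 and 92994535, had scores of 84.09, 101.91 and 151.15 and ranked 17 of 20, 17 of 26 and 11 of 26.

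The reverse order was seen at 3 positions. On chromosome 13 between 81782731 and 81783658 the score was 362.39 with 10 ug, 211.22 with 20 ug and 164.32 with 40 ug, and the ranks were 1, 5 and 10. On chromosome 1 between 59305724 and 59306826 the scores were 272.32, 195.28 and 177.75, with ranks of 2, 6 and 9. At the third, on chromosome 9 between 116059892 and 116060843, the scores were 138.31, 135.16 and 134.49, with ranks of 8 of 20, 11 of 26 and 15 of 26.

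The other 4 had their highest or lowest score at 20 ug. On chromosome 2 between 5060712 and 5061863 the score was 206.58 with 10 ug, 352.90 with 20 ug and 196.94 with 40 ug. On chromosome 3 between 104439982 and 104441066 it was 192.71, 283.10 and 238.82. On chromosome 11 between 81397796 and 81398577 it was 65.46, 138.55 and 121.55, with ranks of 19, 9 and 16. Only on chromosome 14, between 100577598 and 100578679, was the score lowest at 20 ug, at 127.40 against 145.00 at 10 ug and 188.30 at 40 ug. Across the 12 positions the order of scores was more alike between 20 and 10 ug (Spearman rho 0.64, Pearson r of log scores 0.68) and between 40 and 20 ug (0.56 and 0.67) than between 40 and 10 ug (0.27 and 0.48). These correlations describe 12 points that share their 3 libraries; differences between them were not tested.

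The 8 positions called at 2 doses had lower median scores than the 12 called at every dose, at 96.0 against 141.66 in the 10 ug list, 90.72 against 167.31 in the 20 ug list and 109.31 against 191.67 in the 40 ug list. Those called at 10 and 40 ug lay on chromosomes 1, 11 and 17. The position on chromosome 1 between 92405601 and 92406524 scored 106.64 at 10 ug and 102.27 at 40 ug. Of the pair on chromosome 11, the one between 64793140 and 64793831 scored 109.40 and 82.00, and the one between 72389534 and 72390827 scored 55.76, the lowest of the 10 ug list, and 141.17 in the 40 ug list. The pair on chromosome 17 differed in rank in opposite directions. The position between 86641949 and 86642822 had scores of 85.37 and 179.34, ranking 16 of 20 with 10 ug and 8 of 26 with 40 ug. The position between 88377587 and 88378550 had scores of 144.81 and 63.51, ranking 7 of 20 with 10 ug and 25 of 26 with 40 ug. These 5 positions have no peak in the 20 ug list, although 2 of them were among the 10 strongest peaks of another dose.

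Called at 20 and 40 ug were a position on chromosome 4 between 142828054 and 142829441, with scores of 138.00 and 145.40, and one on chromosome 18 between 35244881 and 35246182, with scores of 57.77 and 109.31. The position on chromosome 7 between 122212673 and 122213318 was called at 10 ug (73.39) and 20 ug (90.72). None of these 3 was among the top 9 of any list; the highest rank, 10 of 26, was that of the chromosome 4 position at 20 ug.

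A single dose called the other 20 positions, of which 2 were in the 10 ug list, 11 in the 20 ug list and 7 in the 40 ug list. Those with 10 ug were on chromosome 2 between 165035728 and 165036370 (score 104.01) and on chromosome 10 between 65643964 and 65644551 (95.46). Both ranked in the lower part of their list, at 14 and 15 of 20. The highest-scoring peak of the 20 ug list was called at that dose only. It lay on chromosome 6 between 122655911 and 122658075, the one place called with both Nanog guides, and is called the Nanog position here. Its score of 1200.13 was 3.4 times that of the next peak in the list, and its width of 2165 bp was the largest of the 72 peaks. Neither the 10 ug nor the 40 ug list has a peak on chromosome 6. Because those lists were filtered by an unstated rule, no absence of binding at Nanog can be read from this.

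Leaving the Nanog position aside, the other 10 positions called at 20 ug only scored between 53.99 and 126.14, with a median of 77.54. The strongest 3 of them were on chromosome 8 between 106574813 and 106575609 (126.14), on chromosome 16 between 56919897 and 56920867 (119.08) and on chromosome 13 between 31884264 and 31884830 (113.16). A further 1 lay on chromosome 2 between 129108208 and 129108795 (95.97) and 1 on chromosome 5 between 21832910 and 21833472 (78.42). Nearly equal scores were found on chromosome 13 between 115015217 and 115015661 (76.66), on chromosome 10 between 18941679 and 18942080 (76.58) and on chromosome 9 between 20271226 and 20272019 (75.55). The weakest were on chromosome 7 between 51246378 and 51246779 (59.70) and on chromosome 16 between 49177610 and 49178149 (53.99), the lowest score of the 20 ug list.

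Of the 7 positions called at 40 ug only, 1 was well above the rest. It lay on chromosome 4 between 154008614 and 154009226, with a score of 145.71 and a rank of 12 of 26. The other 6 ranked between 19 and 26. They lay on chromosome 15 between 86998849 and 86999043 (87.47), on chromosome 9 between 99527663 and 99527892 (83.18) and on chromosome 16 between 76343045 and 76343323 (81.80). The remaining 3 were on chromosome 2 between 26662105 and 26662258 (80.42), on chromosome 13 between 36434529 and 36434689 (69.20) and on chromosome 1 between 110756987 and 110757249 (54.96). Positions called at 1 dose thus ranked 12 or lower in their list, with the Nanog position as the exception.

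Peaks were narrower in the 40 ug list than in the others. The median width was 885.5 bp with 10 ug (range 382 to 1294), 641.5 bp with 20 ug (402 to 2165) and 364.5 bp with 40 ug (154 to 938). In the 40 ug list 14 of 26 peaks were narrower than the narrowest peak at 10 ug. The difference was also present position by position. Of the 17 positions called at 10 and 40 ug, all 17 were narrower at 40 ug, with a median ratio of widths of 0.449 (range 0.291 to 0.859). Of the 14 called at 20 and 40 ug, all 14 were narrower at 40 ug (median ratio 0.506, range 0.277 to 0.927). Between 20 and 10 ug the direction was mixed: 8 of 13 positions were narrower at 20 ug, with ratios from 0.415 to 1.65.

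Within a list, the rank correlation of width with score (Spearman rho) was 0.30 at 10 ug (20 peaks), 0.62 at 20 ug (26 peaks; 0.58 for the 25 without the Nanog position) and 0.64 at 40 ug (26 peaks). At 40 ug the widest peak, 938 bp, was on chromosome 11 between 72389714 and 72390651, and the narrowest, 154 bp, on chromosome 2 at the position between 26662105 and 26662258. Among the other mouse lists, median widths were 886 bp (Phc1-sg1), 716 bp (Phc1-sg2), 859 and 946 bp (first and second Nanog-sg3 library at 20 ug), 602, 532.5 and 592 bp (Nanog-sg3 at 0.02, 0.2 and 2 ug), and 365 bp in the transient Nanog-sg3 library. The 40 ug list is thus close in width to the transient list. Fragment length and read depth of the libraries are unknown, and their part in the widths was not tested.

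**Figure D2:**
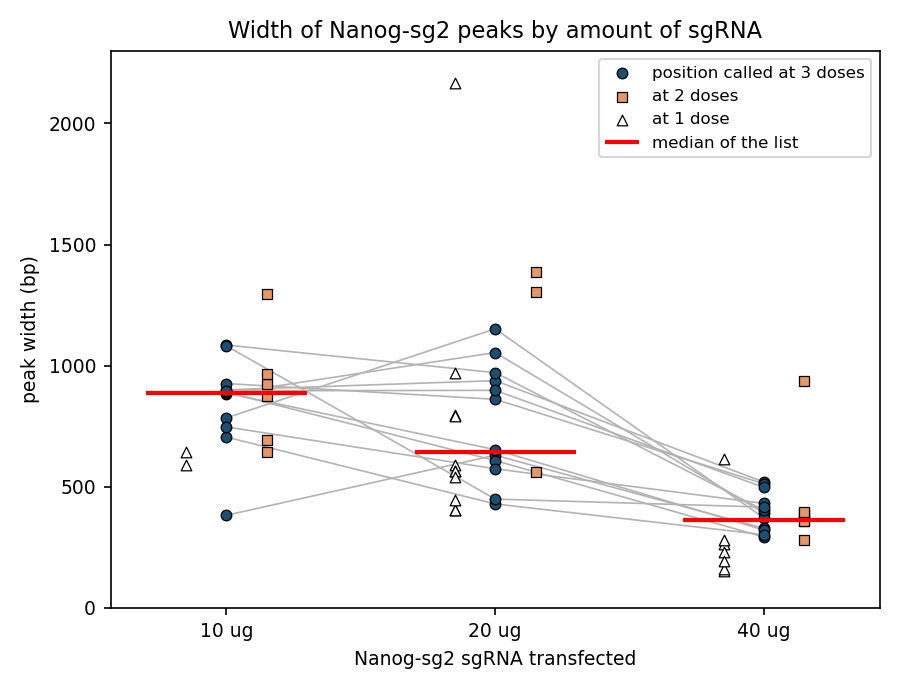
Width in bp of every listed Nanog-sg2 peak at 10, 20 and 40 ug of sgRNA, with filled circles for positions called at 3 doses (joined by grey lines), squares for 2 doses and open triangles for 1 dose. Red bars are the medians of the lists, 885.5, 641.5 and 364.5 bp. Every line ends lower at 40 ug than at 10 ug or 20 ug.

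At the recurring positions the peaks were stacked on each other. The 12 positions called at 3 doses spanned 630 to 1258 bp after merging (median 1017 bp), and the stretch common to all 3 peaks was 281 to 519 bp long (median 393.5 bp). The 40 ug peak lay wholly inside the 10 ug peak at 16 of 17 positions and wholly inside the 20 ug peak at 12 of 14. Its centre lay a median of 49 bp from that of the 10 ug peak (largest 193 bp) and 62 bp from that of the 20 ug peak (largest 463 bp, on chromosome 4). The common stretch at the 12 positions was therefore nearly the 40 ug peak itself. The position on chromosome 11 between 81397796 and 81398577 was the exception to nesting in the 10 ug peak. There the 40 ug peak began before the peaks of the other doses, at 81397796, against 81397831 at 10 ug and 81397819 at 20 ug. The largest offset among the 12 was at the first position on chromosome 3, where the centres of the 10 and 20 ug peaks were 339 bp apart.

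**Figure D3:**
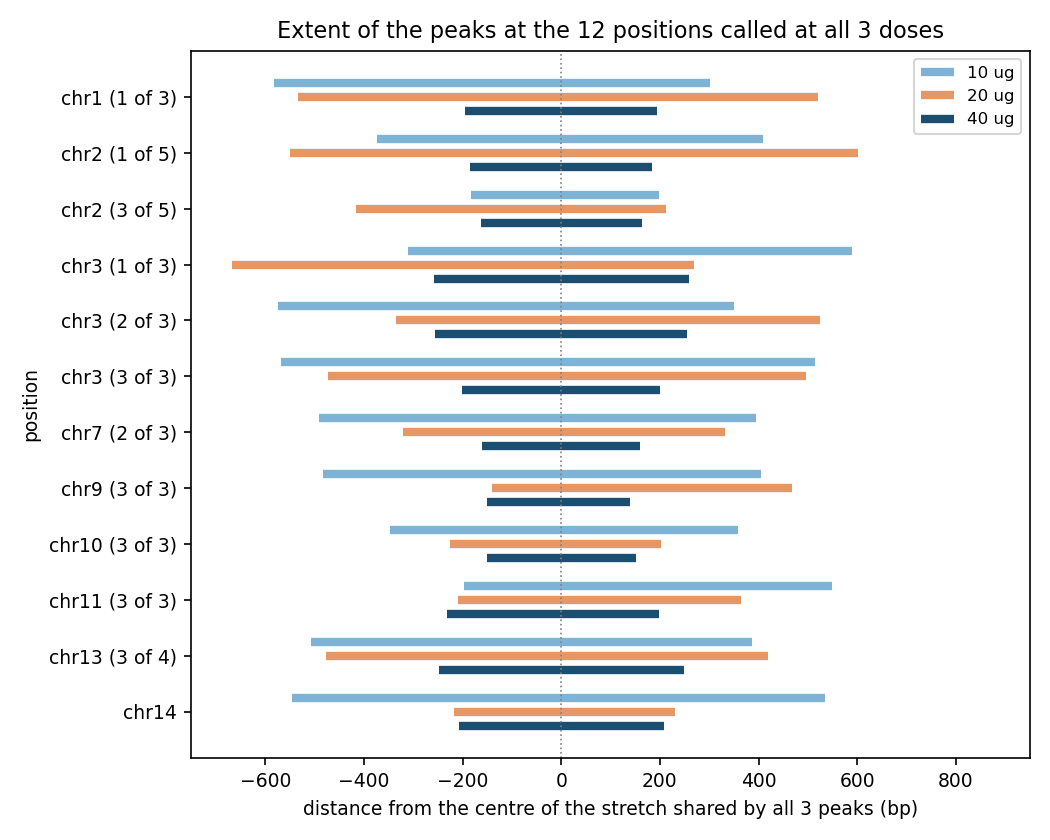
Extent of the 10, 20 and 40 ug peaks (light blue, orange and dark blue bars) at the 12 positions called at every dose, as distance in bp from the centre of the stretch that all 3 peaks share. The 40 ug bar is the shortest of the 3 at all 12 positions and lies within the 10 ug bar at 11 of them.

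The 40 positions were spread over 17 of the 21 mouse chromosomes. Chromosome 2 held 5, chromosome 13 held 4, and chromosomes 1, 3, 7, 9, 10, 11 and 16 held 3 each. All 3 on chromosome 3 were called at every dose, and all 3 on chromosome 16 at 1 dose. The 12 positions called at every dose lay on 9 chromosomes. Chromosomes 12, 19, X and Y had none; a count of 0 of 40 allows a share of up to 7.5%, taking 3 counts as the limit (8.81% by the exact Clopper-Pearson interval). All 8 lists of other mouse guides put fewer of their peaks than that on each of these chromosomes, for example 4.21% on chromosome 12, 3.07% on chromosome 19 and 1.71% on chromosome X in the first Nanog-sg3 library at 20 ug, so a shortage there was not detectable with 40 positions.

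Few Nanog-sg2 positions shared a base with a peak of another guide, and few peaks of the Phc1 guides did so with Nanog-sg3. Of the 40, only the Nanog position shared a base with a peak of another mouse guide (2.5%), and this was in 1 of 8 lists, the first Nanog-sg3 library at 20 ug. Against the 2 Nanog-sg3 libraries at 20 ug alone, the share for Nanog-sg2 was likewise 1 of 40 (2.5%). By that measure, 0.543% of Phc1-sg1 peaks and 0.302% of Phc1-sg2 peaks shared a base with a Nanog-sg3 peak. Little overlap was thus not particular to Nanog-sg2. At the Nanog position the Nanog-sg3 peak, between 122655719 and 122658343, covered all 2165 bp of the Nanog-sg2 peak. In the transient Nanog-sg3 library the nearest peak to the Nanog position lay 2.63 kb away, between 122652373 and 122653284 (score 139.92, rank 3592 of 16119). In the second Nanog-sg3 library at 20 ug and in the 2 ug library the nearest peaks were 112 kb away. The lists of the Nanog guides with a peak at the Nanog position lack the sixth column, and those without the peak all have it. Presence of the peak thus cannot be told apart from how the lists were prepared. No absence of binding at Nanog can be read from the Nanog-sg3 lists that lack the peak. The nearest Phc1-sg1 peak was at 71.5 kb and the nearest Phc1-sg2 peak at 363 kb.

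Set against the lists of the other guides at 20 ug in stable cells as 1 set, the positions lay a median of 50.1 kb from the nearest peak, edge to edge, and 25 of 40 lay within 100 kb. The nearest peak was one of Nanog-sg3 for 33 positions, of Phc1-sg1 for 4 and of Phc1-sg2 for 3. Among these guides at 20 ug, this was also the order of the number of peaks listed. The median distance was 109 and 119 kb to the first and second Nanog-sg3 library at 20 ug (5957 and 5862 peaks), 381 kb to Phc1-sg1 (2948 peaks) and 1126 kb to Phc1-sg2 (663 peaks). To the Nanog-sg3 lists at 2, 0.2 and 0.02 ug (2698, 166 and 122 peaks) it was 228, 9452 and 11141 kb. To the transient list, the longest with 16119 peaks, it was 48.2 kb. The order by length did not hold throughout, as the Nanog-sg3 list at 2 ug was shorter than that of Phc1-sg1 but nearer. Any part of list length in the distances was not tested.

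Distances to Nanog-sg3 can be set beside those of the Phc1 guides. To the nearest peak of either 20 ug Nanog-sg3 library the median was 64.8 kb for Nanog-sg2 positions, against 52.7 kb for Phc1-sg1 peaks and 73.8 kb for Phc1-sg2 peaks. Within 100 kb of a Nanog-sg3 peak were 57.5% of Nanog-sg2 positions (23 of 40, interval 40.9 to 73%), 68.3% of Phc1-sg1 peaks and 58.8% of Phc1-sg2 peaks. Within 10 kb were 12.5% (5 of 40, 4.19 to 26.8%), against 13.7% and 11.2%. Within 1 kb were 7.5% (3 of 40, 1.57 to 20.4%), against 2.14% for Phc1-sg1 and 1.81% for Phc1-sg2. Without the Nanog position 2 of 39 were within 1 kb (5.13%). The shares at 10 and 100 kb were thus close to the background of other guides, and the share at 1 kb rests on 3 positions; without the second Nanog-sg3 library it fell to 1. Positions called at 2 or 3 doses had 60% within 100 kb (12 of 20) and a median of 47.5 kb.

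Distances to the Phc1 guides can be set beside those of Nanog-sg3. Within 100 kb of a Phc1-sg1 peak were 17.5% of Nanog-sg2 positions (7 of 40, interval 7.34 to 32.8%), against 36.4% and 39.6% of the peaks of the first and second Nanog-sg3 library at 20 ug. The median distances were 381 kb for Nanog-sg2, against 167 and 150 kb for the Nanog-sg3 libraries. Within 100 kb of a Phc1-sg2 peak were 5% of Nanog-sg2 positions (2 of 40, 0.611 to 16.9%), against 8.34% and 8.53%. The Nanog-sg2 interval lies below both Nanog-sg3 shares for Phc1-sg1 and includes both for Phc1-sg2. It covers counting error only, and none of these differences was tested.

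**Figure D4:**
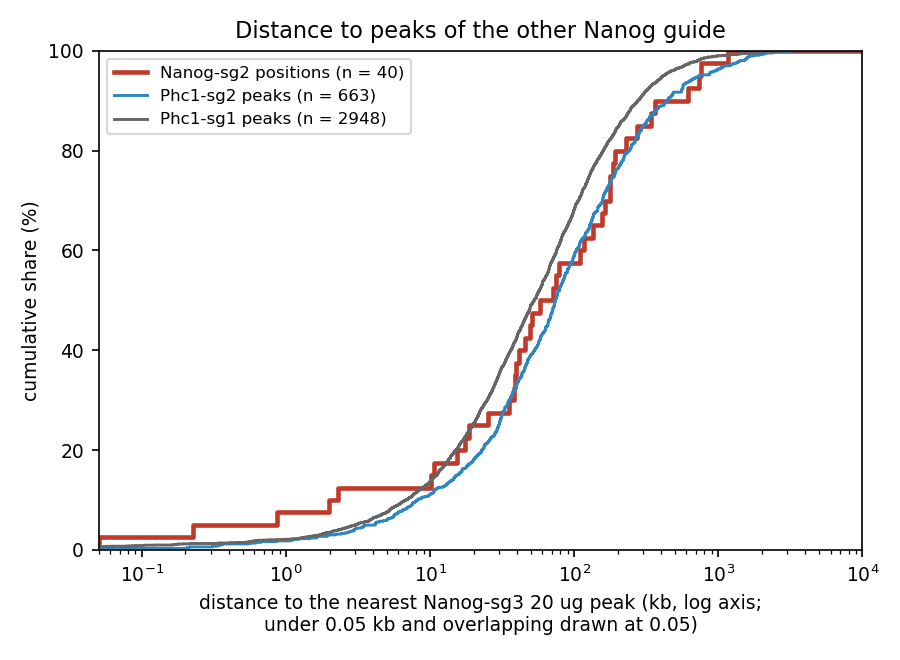
Cumulative share (%) of Nanog-sg2 positions (red, n = 40), Phc1-sg2 peaks (blue, n = 663) and Phc1-sg1 peaks (grey, n = 2948) by distance in kb (log axis) to the nearest peak of the 2 Nanog-sg3 libraries at 20 ug. The red curve runs near the other curves from 10 kb on, with 57.5% of Nanog-sg2 positions within 100 kb.

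The closest neighbours away from Nanog were few and can be named. The position on chromosome 11 between 72389534 and 72390827, called at 10 and 40 ug, ended 227 bp from a peak of the second Nanog-sg3 library at 20 ug (72391054 to 72392419). Peaks next to it were also in the transient list at 944 bp, in the first 20 ug library at 1131 bp and in the 2 ug list at 1167 bp. This is the position with the widest 40 ug peak. The third position on chromosome 3, called at every dose, ended 861 bp from a peak of the second Nanog-sg3 library (104441927 to 104443885, score 259.52) and 1891 bp from a transient peak, while the first 20 ug library had none nearer than 204 kb. The second position on chromosome 3 lay 1970 bp from a peak of the first library (score 68.08). On chromosome 9 the position between 116059892 and 116060843 lay 2167 bp from a transient peak. The second position on chromosome 17, called at 10 and 40 ug, lay 2301, 2570 and 2389 bp from peaks of the first, second and transient Nanog-sg3 libraries, and 8020 bp from a Phc1-sg1 peak, the closest approach of any Phc1 guide. It is the only position with peaks of both genes' guides within 10 kb.

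Of the 40 positions, the one on chromosome 7 between 69369636 and 69370522, called at all 3 doses, lay farthest from the stable 20 ug lists, at 1169 kb, but a transient Nanog-sg3 peak lay 237 kb from it. Over all 8 lists of other mouse guides, the position farthest from any peak was the one on chromosome 10 between 65643964 and 65644551, called at 10 ug only, at 480 kb.

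The 3 peaks listed for the input of the transient cells, the only mouse control list used here, shared no base with any position, and the nearest was 8845 kb away. A list for the mouse immunoprecipitate without sgRNA was not analysed here, so a background of dCas9 without a guide was not set beside the Nanog-sg2 positions.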

How the data were processed

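dCas9 ChIP-seq peak lists were analysed, 1 for each library. Bowtie (no version stated) and the build mm9 are named for these samples, per the submitters' processing notes. The deposited peak names begin with MACS. Its version, control, threshold and filter are not stated, and the lowest score in the lists of mouse guides was 50.01. Each deposited peak has a start, an end and the authors' score in a column without a name; the whole number in the sixth column was used only to describe the layout of a list. Printed starts are 1 above the deposited ones, which were read as counting from 0.

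Peaks sharing at least 1 bp were merged into positions. Distances are edge to edge and 0 where a base is shared. Shares of 1 list carry exact Clopper-Pearson 95% intervals, which cover counting error only. No test was made, since each dose has 1 library. All 40 positions are named, and of other guides the overlapping and the 5 nearest peaks; other neighbours were named after their values were seen. The members and lists were chosen with earlier results of these data known. Python 3.11.15, numpy 2.4.6, pandas 2.3.3 and scipy 1.17.1 were used, and merging, overlap and distance were tested on simulated data. The alternatives were merging within 500 bp, score minimums of 75 and 100, other definitions of sharing and distance, other sets of guides and leaving out a list. Sequences of the guides, gene annotation of mm9 and the human lists were not used here, beyond the count of all peaks.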

Additional observations from a re-analysis of the deposited data

How the results depend on the processing

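Of 67 alternative values over 16 results, 57 stayed within 1.5 times a reported count or, for shares and medians, within the 95% interval of the main value, and 10 moved. With a score of at least 100 there were 25 positions in place of 40, 10 of them at all 3 doses, and 76.5% of 20 ug peaks were found at 40 ug. Positions called at 2 or more doses numbered 13 without the 40 ug list, 14 without the 10 ug list (both chosen after seeing the data) and 17 without the 20 ug list, in place of 20. With 50% of both peaks shared, 35% of 10 ug peaks were found at 40 ug, 26.9% of 20 ug peaks at 40 ug, 26.9% of 40 ug peaks at 10 ug and 26.9% of 40 ug peaks at 20 ug. At positions called at both doses, the median ratio of widths was 0.449 for 40 to 10 ug and 0.506 for 40 to 20 ug. A pair in which the 40 ug peak is under 50% as wide as the other fails this rule by construction. The median distance to another guide, 50.1 kb with an order-statistic 95% interval of 38.1 to 113 kb, fell to 35.4 kb with all 8 lists of other guides, a larger set of peaks by construction, and was 82.6 kb, inside the interval but over 1.5 times as far, where other guides' peaks needed a score of at least 100, a smaller set. Positions within 1 kb numbered 1 when centres were compared. Leaving out each Nanog-sg3 20 ug library in turn gave 1 to 2 positions within 1 kb, 22 within 100 kb each time, and medians of 69.5 to 73.7 kb. Doses were compared position by position, but each dose has 1 library, so there was no replicate error and no test was made. With 20 to 26 peaks in a list, intervals on shares are wide, for example 40.8 to 84.6% for the 10 ug peaks found at 20 ug.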
